A study of Mus musculus with 24 samples.

Results

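The 33 genes described here encode enzymes that break down the branched-chain amino acids leucine, isoleucine and valine, together with the aminotransferases, dehydrogenases and synthetase that move nitrogen through alanine, aspartate, glutamate and glutamine. They were taken by gene symbol, and all 33 were found among the 35275 genes of the deposited table. RNA had been sequenced from gonadal and inguinal white fat of mice with a conditional, adipose deletion of FoxO1, a forkhead transcription factor that insulin holds in the cytoplasm, and of control mice with the floxed FoxO1 gene; the stated purpose was to find genes and pathways under FoxO1 control. The library names gave 6 mice, M5, M9 and M12 knockout and M6, M7 and M10 control, with 2 libraries from each of 12 pads; the 2 libraries were averaged and the mouse was the replicate (n = 3 per group). The sources used here do not give the Cre driver, age, diet or strain, and a floxed control carries no Cre as far as the labels say. The gonadal columns carry a letter read as epididymal, which would make the mice male.

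Branched-chain amino acids are first transaminated to keto acids by BCAT2 in mitochondria or BCAT1 in the cytosol, and the keto acids are then committed to oxidation by the branched-chain keto acid dehydrogenase, a complex of the BCKDHA and BCKDHB subunits, DBT and DLD. The kinase BCKDK switches the complex off by phosphorylation and the phosphatase PPM1K switches it on. Leucine carbon ends as acetyl-CoA and ketone bodies, while valine and isoleucine carbon passes through propionyl-CoA to succinyl-CoA; fat cells use this pathway as a source of carbon for lipid synthesis.

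Library totals ran from 14953657 to 25438811 gene-assigned reads, and the expression unit is FPKM, which scales the reads of a gene to its length and to the library total and allows levels of different genes to be compared per length. The 2 libraries of a pad differed by a median of 3.75% over these genes. Foxo1 was 4.18 ± 0.243 FPKM in knockout and 10.3 ± 2.92 in control gonadal fat (SD, n = 3 mice). In inguinal fat it was 4.10 ± 1.60 against 15.7 ± 3.48 FPKM. Every knockout pad was below every control pad of its depot (exact two-sided permutation p = 0.1 in each, the smallest that 3 mice against 3 allow). Foxo1 did not pass the adjusted limma threshold used below in either depot. The lowest limma adjusted p in the list of regulators that holds Foxo1 was 0.407 in gonadal and 0.129 in inguinal fat. A gene lower in every knockout pad could therefore fail that threshold, so failing it does not show that a gene was unchanged. Epididymis transcripts were present in the gonadal pads of M12, M10 and M6, at a mean of 688, 315 and 44.5 FPKM over 10 markers, and stood below 1 FPKM in the other 3. B cell markers, at summed levels of 185 to 315 FPKM in 4 inguinal pads, were at 3.70 and 4.15 FPKM in those of M7 and M9. In bulk tissue, fewer cells of a type and less RNA per cell cannot be told apart.

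The 250 bases before the RefSeq gene start were read for the members on which the knockout results below turn, to show the promoter sequence beside those values; 28 of the 33 members had an entry on GRCm38.p6, the build of the deposited coordinates, and Gpt had none. Capitals mark matches, on either strand, to a forkhead core bound by FoxO proteins (GTAAACA), to a promoter element named for its letters, CCAAT, or to the GC-rich element bound by Sp1 (GGGCGG). Hibadh was added after the search, because it was the member with a forkhead core. For Oxct1 and Hibadh the RefSeq start lies 45 and 89 bases inside the gene as deposited, and only the 205 and 161 bases before the deposited start are printed and marked. Each sequence runs 5′ to 3′ on the strand of its gene.
Bcat2, chr7:45569903-45570152, plus strand, no match: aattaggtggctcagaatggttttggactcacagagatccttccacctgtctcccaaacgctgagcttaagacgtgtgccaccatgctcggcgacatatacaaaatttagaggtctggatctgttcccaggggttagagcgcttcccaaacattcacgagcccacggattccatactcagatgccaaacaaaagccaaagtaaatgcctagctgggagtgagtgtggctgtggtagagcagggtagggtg
Gpt2, chr8:85492326-85492575, plus strand, 2 GC boxes: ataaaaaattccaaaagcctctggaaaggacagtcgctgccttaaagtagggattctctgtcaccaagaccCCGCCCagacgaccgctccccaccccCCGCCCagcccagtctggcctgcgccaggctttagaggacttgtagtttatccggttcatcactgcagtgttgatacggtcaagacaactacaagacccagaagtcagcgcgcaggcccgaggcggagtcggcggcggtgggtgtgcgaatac
Mccc1, chr3:36000679-36000928, minus strand, 1 GC box and 3 CCAAT boxes: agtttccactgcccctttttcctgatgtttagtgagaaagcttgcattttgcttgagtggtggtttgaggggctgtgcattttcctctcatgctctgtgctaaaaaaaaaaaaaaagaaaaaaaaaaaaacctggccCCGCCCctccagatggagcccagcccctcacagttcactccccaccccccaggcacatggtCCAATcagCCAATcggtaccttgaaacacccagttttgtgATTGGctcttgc
Glud1, chr14:34310477-34310726, plus strand, 3 GC boxes: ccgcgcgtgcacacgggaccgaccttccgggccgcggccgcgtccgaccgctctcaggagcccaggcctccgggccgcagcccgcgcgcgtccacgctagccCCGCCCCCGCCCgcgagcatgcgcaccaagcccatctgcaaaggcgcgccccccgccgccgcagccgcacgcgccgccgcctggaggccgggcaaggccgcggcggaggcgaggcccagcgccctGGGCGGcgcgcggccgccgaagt
Oxct1, chr15:4026178-4026382, plus strand, no match: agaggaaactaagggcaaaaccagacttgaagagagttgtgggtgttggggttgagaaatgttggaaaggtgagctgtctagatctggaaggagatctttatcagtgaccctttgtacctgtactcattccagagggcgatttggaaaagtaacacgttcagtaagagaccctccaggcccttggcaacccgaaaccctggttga
Hibadh, chr6:52640390-52640550, minus strand, 1 forkhead core, 1 CCAAT box and 1 GC box: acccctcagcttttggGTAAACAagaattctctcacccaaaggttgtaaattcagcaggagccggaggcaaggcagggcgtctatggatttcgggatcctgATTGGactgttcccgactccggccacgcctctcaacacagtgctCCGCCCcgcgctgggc
The forkhead core was found for 1 of the 28 members with an entry, 3.57%, against 3.54% of the 27025 genes with one. A gene was counted once, if any of its windows of 250 bases before a RefSeq start matched. CCAAT was in 17 of 28 (60.7%, against 37.5% of all) and GGGCGG in 16 of 28 (57.1%, against 35.4%). The E-box CACGTG was in 2 of 28 (7.14%, against 6.86%) and TATAAA in 3 of 28 (10.7%, against 14.3%). Each motif was searched on its own, so matches to different motifs may share letters. The median GC content of the member promoters was 57.6%, against 52.0% over all, with a median of 15 CpG dinucleotides against 6. A match describes letters in this window only.

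Levels spanned a wide range within the pathway. In control gonadal fat Glul, the glutamine synthetase, was highest at 333 ± 19.7 FPKM (SD, n = 3), followed by Aldh2, a mitochondrial aldehyde dehydrogenase, at 196 ± 3.71, and Glud1, the glutamate dehydrogenase, at 99.7 ± 1.96. Glul and Aldh2 also led in control inguinal fat, at 457 ± 99.7 and 269 ± 32.8 FPKM, and there the third was Pccb, the beta subunit of propionyl-CoA carboxylase, at 181 ± 24.2. The lowest member in all 4 groups was Bcat1, at 0.16 to 0.483 FPKM over the 12 pads, under the filter of a mean of 0.5 FPKM, so that 32 of the 33 members were tested in each comparison. Bcat2 mRNA was therefore the main transcript of the transamination step, at 51.4 ± 4.39 FPKM in gonadal and 91.9 ± 15.6 in inguinal control fat. Ppm1k was the next lowest in gonadal control fat, at 1.90 ± 0.412 FPKM, against 22.5 ± 1.86 for Bckdk, so the transcript of the kinase was above that of the phosphatase by a ratio of 10.4 to 14.9 in the control pads and 14.8 in each knockout pad of that depot.

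**Figure D1:**
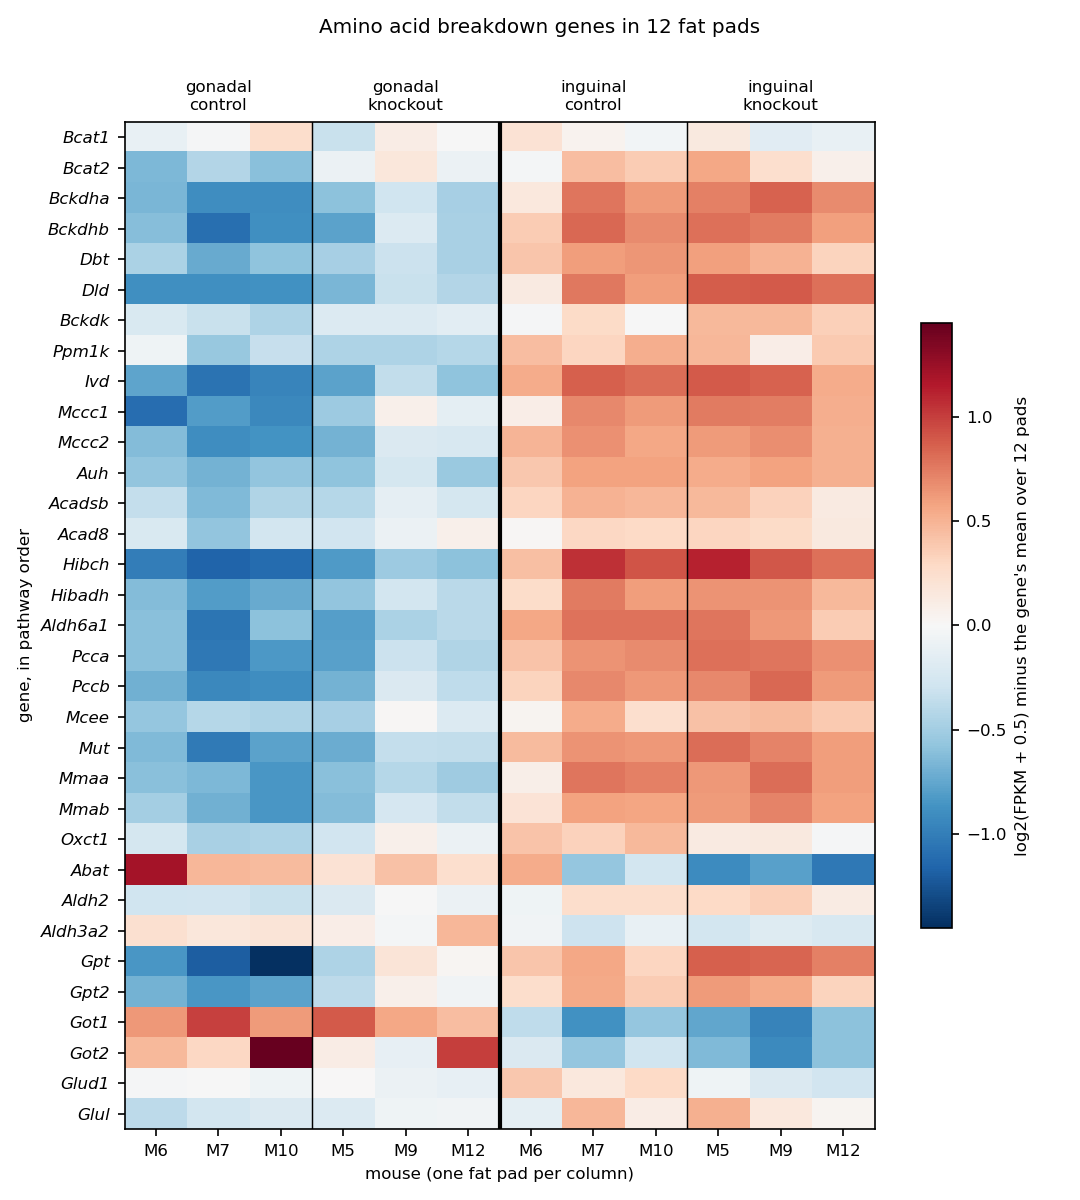
Level of each of the 33 genes (rows, in pathway order) in each of the 12 fat pads (columns, by depot, genotype and mouse), as log2(FPKM + 0.5) minus the mean of that gene over the pads. Most rows are blue in gonadal and red in inguinal fat; Got1, Got2, Abat and Aldh3a2 run the other way, and the inguinal pad of control mouse M6 is paler than those of M7 and M10 in most rows.

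The depot made the largest difference to these genes. In control mice 27 members were lower in gonadal than in inguinal fat and 3 were higher (limma, Benjamini-Hochberg adjusted p under 0.05), against 14.5% and 26.9% of the 14505 genes tested. The median log2 difference, gonadal minus inguinal, was -1.14 over the members and 0.18 over all genes. For 28 members every gonadal pad was below every inguinal pad, and for 3 every one was above, against 20.2% and 38.7% of all genes. Got1 and Got2, the cytosolic and mitochondrial aspartate aminotransferases, and Aldh3a2, a fatty aldehyde dehydrogenase, were the 3 higher in gonadal fat; the Aldh3a2 call did not hold with edgeR or DESeq2 on rebuilt counts (adjusted p = 0.130 and 0.230). Abat, the GABA transaminase, and Glul did not pass. With the mouse as a block, since both depots came from the same animals, Abat passed as higher (0.82, adjusted p = 0.0165), and Bckdk, Acad8, Aldh2, Aldh3a2 and Glud1 did not pass (adjusted p = 0.0513 to 0.0981). Without mouse M10, 15 members passed as lower and 1 as higher. Calls over all genes fell as well, from 2106 lower and 3904 higher to 445 lower and 1089 higher. Without the gonadal pads that held epididymis transcripts, which left only the gonadal pad of M7 against 3 inguinal pads, the members' median was -1.20.

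Hibch, which frees 3-hydroxyisobutyrate in valine breakdown, showed the largest difference. In control mice M6, M7 and M10 it was 12.9, 11.5 and 12 FPKM in gonadal and 36, 55.8 and 50.2 FPKM in inguinal fat. Its inguinal mean was 3.90-fold the gonadal mean (log2 difference -1.90, SE 0.17, limma adjusted p = 0.000796). The depots did not overlap.

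Ivd, the isovaleryl-CoA dehydrogenase of leucine breakdown, was 31.4, 25.2 and 27.3 FPKM in gonadal and 78.2, 98.4 and 94.5 FPKM in inguinal control pads, a log2 difference of -1.67 (SE 0.13). Bckdhb, the beta subunit of the dehydrogenase that catalyses the committed step, was 24, 17.1 and 19.8 FPKM in gonadal and 47.7, 66.3 and 59.6 in inguinal control pads (-1.49, SE 0.17). Aldh6a1, the methylmalonate semialdehyde dehydrogenase of valine breakdown, was 70.4, 51.2 and 70.7 FPKM in gonadal and 159, 186 and 186 in inguinal control pads (-1.47, SE 0.16). All 3 were without overlap between depots, and in Bckdhb the M6 inguinal pad was the lowest of its group. Mccc1 was 9.11, 11.3 and 10.3 FPKM in gonadal and 21.5, 32.9 and 31.3 in inguinal control pads (-1.42), also without overlap.

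By role, all 4 dehydrogenase subunit genes were lower in gonadal fat (median log2 difference -1.36), as were all 4 leucine genes (-1.39), all 5 isoleucine and valine genes (-1.26) and all 6 propionyl-CoA genes (-1.32). The kinase and phosphatase genes differed less, with Bckdk at -0.42 (SE 0.12) and Ppm1k at -0.74 (SE 0.16); both passed, and Bckdk did not with the mouse as a block (adjusted p = 0.0563). Bcat2 was at -0.82 (SE 0.15) and Oxct1, the enzyme that activates ketone bodies for oxidation, at -0.80 (SE 0.10). The alanine aminotransferases Gpt and Gpt2 were at -1.59 (SE 0.17) and -1.16 (SE 0.11), opposite to the aspartate aminotransferases Got1 at 1.35 (SE 0.18) and Got2 at 1.09 (SE 0.30). The Got2 value was uneven: its gonadal control pads were 38.1, 33.9 and 75.3 FPKM, and the highest was from M10, 1 of the pads with epididymis transcripts; without the pads of M6 and M10, which left 1 gonadal pad, the difference was 0.66 (adjusted p = 0.091).

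**Figure D2:**
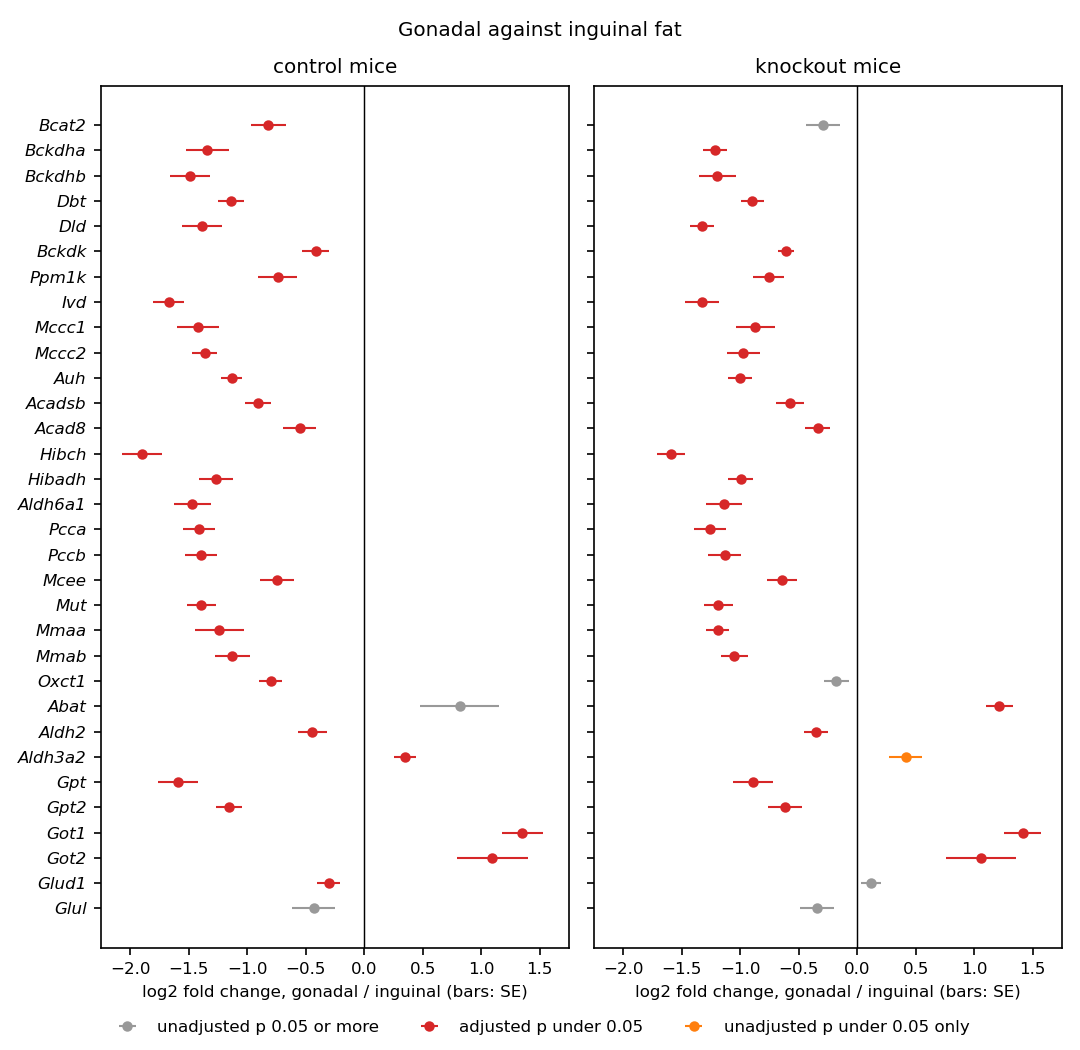
Log2 fold change between gonadal and inguinal fat (horizontal axis, negative means lower in gonadal fat) for the 32 tested genes in control mice (left) and knockout mice (right), with SE bars from limma over 3 mice. Red points pass an adjusted p of 0.05; 27 members pass on the lower side in control mice and 24 in knockout mice, and Got1 and Got2 pass on the higher side in both.

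The fall from inguinal to gonadal fat was shared with adipocyte markers. All 10 (among them Adipoq, Plin1 and Lipe) were lower in gonadal fat of control mice, 9 of them past the threshold, with a median log2 difference of -1.48, against -1.14 for the members. Subtracting the adipocyte median turned the members' median to 0.34. Over all 14505 genes tested in control mice, 9171 were higher and 5334 lower in gonadal fat, 26.9% and 14.5% past the threshold. Macrophage markers were higher in gonadal fat, with 7 of 9 past the threshold and a median of 2.26; their summed level was 8588 to 13122 FPKM in gonadal and 641 to 1385 FPKM in inguinal control pads. Mesothelial markers were higher in 6 of 6 (median 5.73), and skeletal muscle markers lower in 11 of 11 tested (-4.53). Brown or beige adipocyte markers were lower in 5 of 5 tested (-4.71, 4 of them past the threshold), with summed levels of 19.7 to 36 FPKM in gonadal and 308 to 1168 FPKM in inguinal control pads, and in 6 of 6 in knockout mice (-3.71). The part of these cells in the members' depot difference was not tested.

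In knockout mice the depot difference ran the same way at a smaller size. The median over the members was -0.88 (all genes 0.27), and 24 were lower and 3 higher in gonadal fat (adjusted p under 0.05), against 12.7% and 35.1% of the 14593 genes tested. Hibch was again the most different (-1.59, SE 0.12), with gonadal pads of M5, M9 and M12 at 14.8, 18.2 and 17.3 FPKM and inguinal pads at 58.3, 50.1 and 46.6. For 25 members every gonadal pad was below every inguinal pad, and for 4 every one was above, against 16.6% and 46.9% of all genes. The 3 higher genes that passed were Got1 (1.41, SE 0.16), Got2 (1.05, SE 0.30) and Abat (1.21, SE 0.11). Bcat2 (-0.29, adjusted p = 0.145), Oxct1 (-0.18, adjusted p = 0.217) and Glud1 (0.11, adjusted p = 0.298) did not pass here. With edgeR and DESeq2 on rebuilt counts, Bcat2 (adjusted p = 0.0358 and 0.0043) and Oxct1 (adjusted p = 0.0392 and 0.0072) passed as lower in knockout mice too, while Glud1 did not. With the mouse as a block Acad8 and Aldh2 did not pass (adjusted p = 0.102 and 0.0567). Whether their depot difference depends on genotype is the same test as the difference between knockout effects given below.

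In gonadal fat, no member and no gene at all passed the threshold for knockout against control (limma, 0 of 14851). Of the 32 members tested, 26 were higher in knockout fat and 6 lower, with a median log2 difference of 0.26, while 44.2% of all genes were higher and their median was -0.025. At an unadjusted p under 0.05, 12 members were higher and 0 lower, against 4.40% and 4.30% of all genes. For 13 members every knockout pad was above every control pad, and for 1, Abat, every one was below, against 6.79% and 7.54% of all genes. The gap was small in some of the 13. For Mmaa the lowest knockout pad was 4.021 FPKM and the highest control pad 4.018, and for Pccb 76 and 75.5. The 2 libraries of a pad differed by a median of 8.14% for Mmaa and 2.98% for Pccb. DESeq2 on read counts rebuilt from the table called 6 members (Gpt, Gpt2, Mccc1, Bcat2, Hibch and Dld, all higher; 288 genes in all), and edgeR called 0.

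The alanine aminotransferase genes and Mccc1 had the 3 largest gonadal differences among the members. Gpt, which exchanges nitrogen between alanine and glutamate, was 54.5, 42.5 and 35.6 FPKM in control mice M6, M7 and M10 and 71.9, 112 and 100.4 FPKM in knockout mice M5, M9 and M12. The knockout mean was 2.14-fold the control mean (log2 1.09, SE 0.22, unadjusted p = 0.0026, limma adjusted p = 0.421), with no overlap. Gpt2, the mitochondrial form, was 63.4, 56.4 and 59.4 FPKM in control and 78.5, 107 and 98.1 in knockout pads (log2 0.65, SE 0.13, adjusted p = 0.421). The groups did not overlap for Gpt2 either, and M5 was the lowest knockout pad for both genes.

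At the start of the branched-chain pathway, Bcat2 was 48.1, 56.4 and 49.7 FPKM in control and 71.6, 85.3 and 71.1 FPKM in knockout gonadal fat. This was the smallest unadjusted p among the members in this depot (log2 0.56, SE 0.11, unadjusted p = 0.0021, limma adjusted p = 0.421). Every knockout pad was above every control pad.

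All 4 subunit genes of the keto acid dehydrogenase were higher in the knockout. Dld, whose product also serves pyruvate dehydrogenase, was 52.3, 52.1 and 52.7 FPKM in control and 61.4, 77.8 and 72.2 FPKM in knockout pads (log2 0.42, SE 0.10). Bckdha was 74.2, 62.5 and 62.4 FPKM in control and 77.7, 95.6 and 83.8 in knockout pads (0.37, SE 0.12). Neither overlapped between genotypes. Bckdhb (0.38, SE 0.19) and Dbt (0.17, SE 0.10) had unadjusted p-values of 0.0864 and 0.133. Their regulators stood at 0.14 (SE 0.08) for Bckdk and -0.12 (SE 0.15) for Ppm1k.

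In the leucine branch, Mccc1, the biotin-bearing subunit of methylcrotonyl-CoA carboxylase, was 9.11, 11.3 and 10.3 FPKM in control and 13.9, 21.3 and 18.2 FPKM in knockout pads (log2 0.76, SE 0.17, unadjusted p = 0.0043). Its partner Mccc2 was 24.4, 20.2 and 20.6 FPKM in control and 23.5, 32.8 and 32.3 in knockout pads (0.42, SE 0.16), with M5 inside the control range. Ivd was 31.4, 25.2 and 27.3 against 31, 41.8 and 35.5 FPKM (0.36, SE 0.14), again with M5 inside. Auh, the next hydratase, was at 0.16 (SE 0.11).

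In the valine and isoleucine branch, Hibch was 12.9, 11.5 and 12 FPKM in control against 14.8, 18.2 and 17.3 in knockout pads (log2 0.45, SE 0.10, unadjusted p = 0.0043), and Hibadh, which oxidises 3-hydroxyisobutyrate, was 65.2, 57.5 and 61 against 68.1, 84.4 and 77 FPKM (0.32, SE 0.10). Neither overlapped. Acadsb, Acad8 and Aldh6a1 were at 0.21, 0.26 and 0.21, with unadjusted p-values of 0.118, 0.112 and 0.277. Among the propionyl-CoA genes Pccb was 75.5, 63.5 and 65.3 FPKM in control and 76, 106 and 94.6 in knockout pads (0.42, SE 0.14), and the other 5, including the methylmalonyl-CoA mutase gene Mut, were at 0.19 to 0.34 with unadjusted p over 0.05. Oxct1 was 59.6, 51.3 and 52.1 against 59, 75.2 and 67 FPKM (0.30, SE 0.12), where M5 lay just below the highest control pad.

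**Figure D3:**
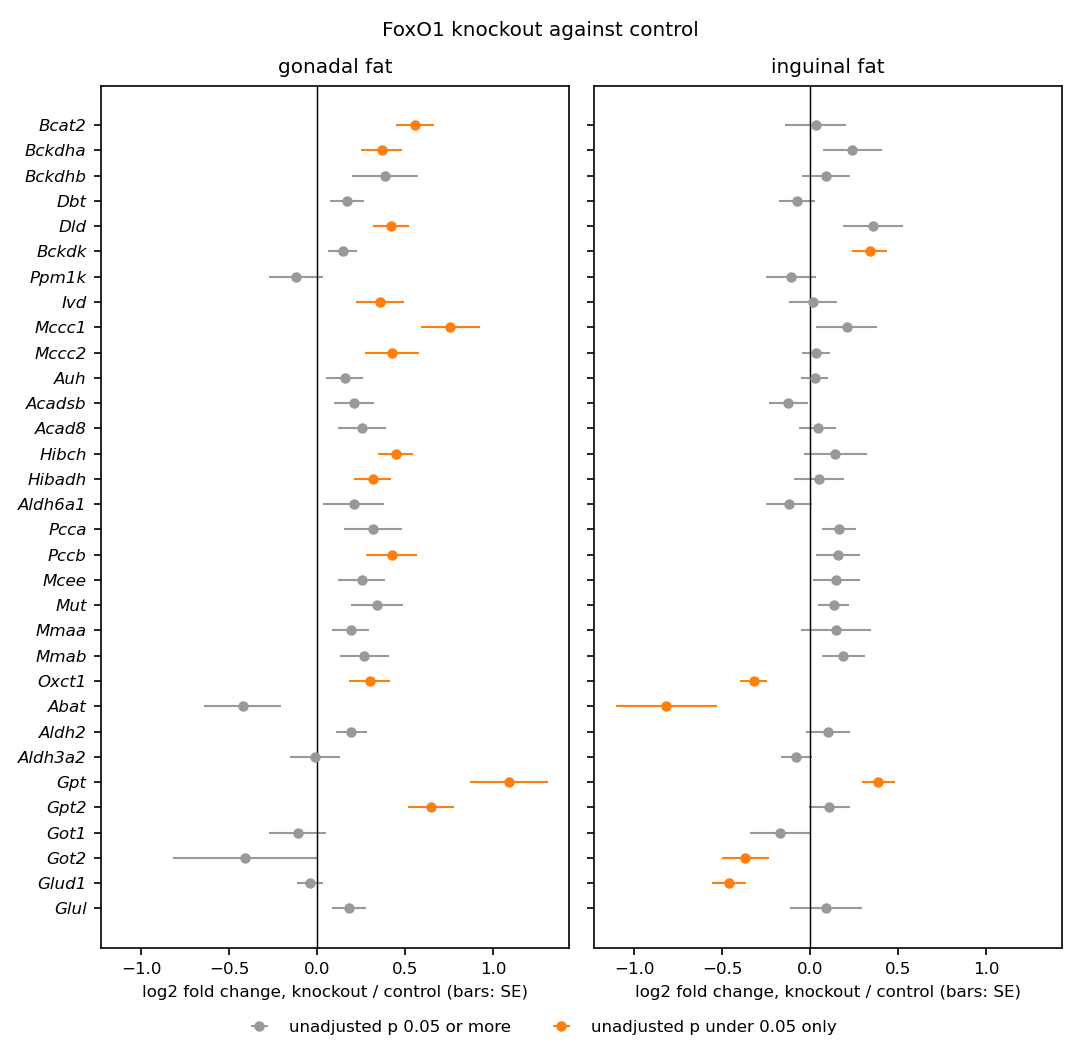
Log2 fold change of knockout against control (horizontal axis) for the 32 tested genes in gonadal (left) and inguinal (right) fat, with SE bars from limma over 3 mice a group. Orange points have an unadjusted p under 0.05, 12 in gonadal and 6 in inguinal fat; none passes the adjusted threshold.

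Adipocyte markers moved with this pattern: 9 of 10 were higher in knockout gonadal fat, with a median log2 difference of 0.41, and their summed level was 11930 to 16980 FPKM in knockout and 10553 to 13231 FPKM in control pads. With the adipocyte marker level as a covariate the members' median was 0.10, with 27 higher and 5 lower. Over all 14851 genes tested in gonadal fat, 6564 were higher and 8287 lower in the knockout, 4.4% and 4.3% at an unadjusted limma p under 0.05. Red blood cell markers were lower in 7 of 7 (median -1.57) and macrophage markers in 9 of 9 (-0.37). T and NK cell markers were lower in 8 of 8 (-0.54), B cell markers in 7 of 7 (-0.32) and progenitor markers in 8 of 8 (-0.38). Brown or beige adipocyte markers were higher in 3 of 3 tested (0.86, 2 at an unadjusted limma p under 0.05). Skeletal muscle markers were higher in 6 of 8 tested (0.49). None of these markers passed the adjusted threshold. Without the pads that held epididymis transcripts, which left 2 knockout mice and 1 control, the members' median was 0.38. The part of these cells in the result was not tested otherwise.

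**Figure D4:**
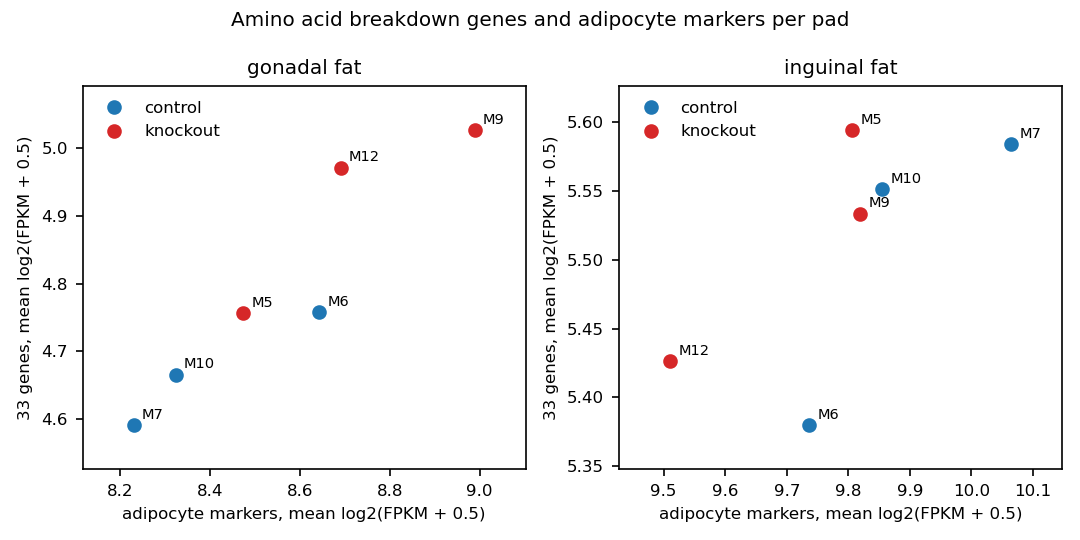
Mean log2(FPKM + 0.5) of the 33 genes (vertical axis) against that of 10 adipocyte markers (horizontal axis) in each gonadal (left) and inguinal (right) pad, control in blue and knockout in red, labelled by mouse; the axes do not start at 0. In gonadal fat the knockout pads of M9 and M12 are highest on both axes; in inguinal fat the genotypes are mixed.

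In inguinal fat no member passed the adjusted threshold, 3 of the 13621 genes did (all lower, 0.022%), and 22 members were higher and 10 lower in knockout fat, with a median log2 difference of 0.07; over all genes 29.4% were higher and the median was -0.10. At an unadjusted p under 0.05, 2 members were higher and 4 lower, against 3.29% and 11.6% of all genes. For 3 members (Gpt, Bckdk and Dld) every knockout pad was above every control pad and for 4 (Glud1, Oxct1, Abat and Got2) every one was below, against 5.28% and 17.3% of all genes. The inguinal pad of control mouse M6 was low for most members, and without M6 the median was -0.042, with 11 members higher and 21 lower. The median was 0.19 (25 higher, 7 lower) when each pad was centred on its median gene, 0.16 (26 and 7) with DESeq2 and 0.13 (24 and 9) with edgeR on rebuilt counts, which also tested Bcat1.

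Gpt was also the leading higher gene in this depot, at 130.3, 146 and 122 FPKM in control and 179, 177 and 163 FPKM in knockout pads (log2 0.39, SE 0.09, unadjusted p = 0.0059, limma adjusted p = 0.173). Bckdk, the inhibitory kinase, was 28.1, 34.5 and 28.3 FPKM in control and 39.4, 39.4 and 36.1 in knockout pads (0.34, SE 0.10, unadjusted p = 0.0151, adjusted p = 0.229). The groups did not overlap for either gene.

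Of the 10 members that were lower, 4 had an unadjusted p under 0.05. Glud1, which releases ammonia from glutamate, was 134, 113 and 124 FPKM in control and 97.2, 88 and 83.8 FPKM in knockout pads (log2 -0.46, SE 0.10, unadjusted p = 0.0030, limma adjusted p = 0.158). Oxct1 was 95.4, 90 and 98.8 against 78.3, 78.5 and 70.4 FPKM (-0.32, SE 0.08, unadjusted p = 0.0060, adjusted p = 0.174). Neither overlapped.

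Abat was 6.06, 2.58 and 3.26 FPKM in control and 1.91, 2.12 and 1.7 in knockout inguinal pads (log2 -0.82, SE 0.29); M6 was its highest pad, and without it the difference was -0.50. Got2 was 23.6, 18.4 and 22.2 against 17.3, 14.1 and 17.9 FPKM (-0.37, SE 0.13). Both were without overlap.

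Bcat2 in inguinal fat was 74.2, 103 and 98.1 FPKM in control and 112, 90 and 79.9 in knockout pads (log2 0.03, SE 0.18), and the genotypes overlapped, with M5 above and M6 below all pads of the other genotype. Over all 13621 genes tested in inguinal fat, 4005 were higher and 9616 lower in the knockout, 3.29% and 11.6% at an unadjusted limma p under 0.05. Macrophage markers were lower in 9 of 9 in the knockout (median -1.06), with summed levels of 312 to 574 FPKM in knockout and 641 to 1385 FPKM in control pads. Skeletal muscle markers were lower in 11 of 11 (median -2.14), with overlapping summed levels of 18.4 to 384 FPKM in knockout and 114 to 815 FPKM in control pads. Red blood cell markers were lower in 7 of 7 (median -1.67, all 7 at an unadjusted p under 0.05), with summed levels of 2298 to 2559 FPKM in knockout and 3059 to 10525 FPKM in control pads. Progenitor markers were lower in 8 of 8 (-0.57, 5 at that level), with 607 to 730 FPKM against 914 to 1106 FPKM. Brown or beige adipocyte markers were higher in 5 of 6 (0.80, 1 at that level), with overlapping sums of 1007 to 1369 FPKM and 308 to 1168 FPKM. Adipocyte markers had a median of -0.07. No marker of these lists passed the adjusted threshold. Their part in the values above was not tested.

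**Figure D5:**
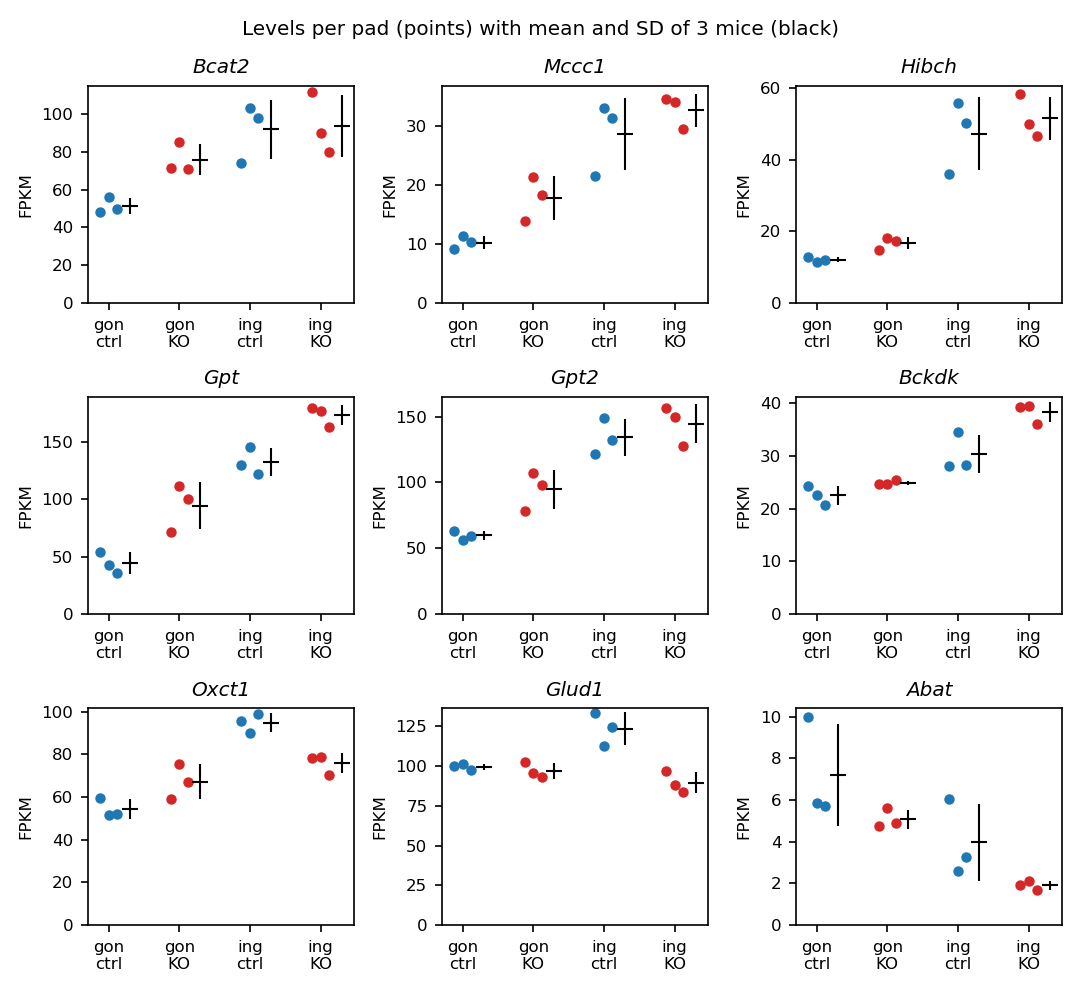
FPKM of 9 members in each pad (points, blue control and red knockout) with the mean and SD of 3 mice (black), for gonadal (gon) and inguinal (ing) fat; each axis starts at 0. In gonadal fat Bcat2, Mccc1, Hibch, Gpt, Gpt2 and Bckdk separate by genotype with the knockout pads higher, and Abat with them lower. In inguinal fat Gpt and Bckdk separate with the knockout pads higher, and Glud1, Oxct1 and Abat with them lower.

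The difference between the knockout effects in the 2 depots was tested directly, as the gonadal effect minus the inguinal effect. No gene passed (0 of 14577). The difference was positive for 29 of 32 members, with a median of 0.23 (all genes 0.08, of which 66.4% were positive), and 5 members had an unadjusted p under 0.05, all positive, against 4.21% positive and 0.761% negative among all genes. When each pad was centred on its median gene, 21 members were positive and 11 negative, with a median of 0.12; the median was 0.13 with edgeR and 0.15 with DESeq2.

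Oxct1 had the smallest p, with a difference of 0.62 (SE 0.14, unadjusted p = 0.0013, limma adjusted p = 0.803), with 0.30 in gonadal and -0.32 in inguinal fat. The other 4 were Glud1 (0.42, SE 0.12; -0.04 in gonadal and -0.46 in inguinal fat), Gpt2 (0.54, SE 0.18; 0.65 and 0.11), Gpt (0.70, SE 0.25; 1.09 and 0.39) and Bcat2 (0.53, SE 0.22; 0.56 and 0.03). In gonadal fat Glud1 was 100.1, 101 and 97.5 FPKM in control and 102, 95.4 and 93.2 in knockout pads. In inguinal fat Gpt2 was 121, 149 and 132 FPKM in control and 157, 150 and 128 in knockout pads. The genotypes overlapped in both cases. Adipocyte markers had a median of 0.48 in the same test, positive in 10 of 10. Leaving out control mouse M6 moved the members' median to 0.37, and leaving out M7 moved it to 0.12, with 24 positive and 8 negative.

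Ratios of paired genes within a pad were also compared, in 16 tests, of which 5 had no overlap between genotypes and none passed (Benjamini-Hochberg adjusted exact permutation p = 0.32 for each of the 5). Gpt over Gpt2 was 0.99 ± 0.07 in knockout and 0.74 ± 0.13 in control gonadal fat (SD, n = 3), and 1.20 ± 0.07 against 0.99 ± 0.08 in inguinal fat. The groups did not overlap in either depot (exact two-sided permutation p = 0.1 each, the smallest possible). Bcat2 over Bcat1 was 296 ± 132 in knockout and 154 ± 44.1 in control gonadal fat, without overlap (exact p = 0.1), with Bcat1 at a low level throughout. Mccc2 over Mccc1 was 1.67 ± 0.12 against 2.16 ± 0.46 in gonadal fat, without overlap (exact p = 0.1). Got2 over Got1 was 4.23 ± 0.18 in knockout and 4.83 ± 0.34 in control inguinal fat, without overlap (exact p = 0.1), and Bckdk over Ppm1k overlapped in both depots.

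Other genes of these pathways were counted from lists that were chosen with earlier results of these data known. Of 14 that act in steps shared with or linked to those of the members, 13 were higher in knockout gonadal fat (median 0.28). An unadjusted limma p under 0.05 was reached by 6, all higher. Over all genes these shares were 44.2% and 4.40%. The smallest p-values were those of Acads, Echs1, Hadh and Acaa2, genes of short- and medium-chain acyl-CoA oxidation (log2 0.54, 0.50, 0.47 and 0.33). In the inguinal comparison 10 of 14 were higher (median 0.15; 29.4% of all genes), and Acsf3, which makes malonyl-CoA in mitochondria, was at 0.50 (unadjusted p = 0.0061). Between the depots of control mice 12 of 14 passed as lower in gonadal fat, against 14.5% of all genes, among them Echs1 (-1.46) and the branched-chain amino acid carrier gene Slc25a44 (-1.22).

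Of 44 genes for the breakdown or synthesis of other amino acids, 37 were tested in gonadal fat, with 3 higher (Aldh4a1, Gstz1 and Csad) and 1 lower (Aldh18a1) at an unadjusted p under 0.05, against 4.40% and 4.30% of all genes, and a median of 0.02. In inguinal fat 31 were tested, with 1 higher and 5 lower at that level, against 3.29% and 11.6% of all genes; Psph was at 0.43 and the proline oxidase gene Prodh at -0.68 (unadjusted p = 0.0043), with control pads of 24.5, 21.8 and 21.2 FPKM and knockout pads of 16.8, 14.1 and 11.1. Prodh also had the smallest unadjusted p of this list for the difference between depots (limma, 0.92, unadjusted p = 0.0039). Between depots of control mice 9 of 35 passed as higher and 14 as lower in gonadal fat, against 26.9% and 14.5% of all genes. Arg1, an arginase known from macrophages and liver, was 538 to 1378 FPKM in gonadal and 0.289 to 0.386 FPKM in inguinal control pads.

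Of 11 transcriptional regulators, Esrra, a nuclear receptor of mitochondrial genes, was at 0.37 in gonadal and 0.33 in inguinal fat (unadjusted p = 0.0036 and 0.0329). Klf15, a factor known to act on amino acid breakdown genes, was at 0.42 in gonadal fat (unadjusted p = 0.0224), with control pads of 15.9, 14.2 and 14.8 FPKM and knockout pads of 16.5, 23.3 and 21.2. Srebf1 was at 0.56 in gonadal fat (unadjusted p = 0.0252). Ppara was at 1.25 in inguinal fat (unadjusted p = 0.0085), at 2.48, 3.8 and 7.06 FPKM in control and 10.7, 9.7 and 11 in knockout pads. None of these 4, and no other tested regulator of the list, which includes Foxo1, passed the adjusted threshold in either depot.

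The authors' deposited table of changed genes listed 19 of the 33 members in gonadal fat, all higher in the knockout, among 1808 genes. In the authors' deposited table for inguinal fat 6 were listed among 2220 genes. Of these 6, Dld, Gpt and Bckdk were higher and Glud1, Got2 and Abat lower. The listed genes were 5.13% and 6.29% of all 35275 genes of the expression table. That total includes genes under the filter of 0.5 FPKM, which only 14851 gonadal and 13621 inguinal genes passed. Nearly all members passed it, so these 2 shares are too low a background for the members. The authors' deposited table gave Gpt a log2 fold change of 1.02 in gonadal and 0.48 in inguinal fat. Treating each of the 6 libraries of a group as a replicate called 13 members in gonadal fat, among 1125 genes in all. In inguinal fat it called 6 members, among 2189 genes in all. With the mouse as replicate the counts of members were 0 and 0.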

How the data were processed

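Libraries were made from total RNA with a NEBNext Ultra kit, per the labels' protocols, and CASAVA, STAR and the mm10 build are listed in the submitters' processing notes; the sources used here give neither the counting tool nor its strand setting. The deposited table holds FPKM, computed by the authors from the listed gene lengths and the reads assigned to genes. The authors' deposited comparison tables hold read counts, group means as a signal scaled by size factors, log2 fold changes and p-values, for the genes listed as changed. A first letter z was read as knockout, since the authors' knockout mean is a weighted mean of those columns, and f as control; e was read as epididymal and s as inguinal. The column names carry animal numbers but no replicate numbers from the labels, and each was assigned to a group only. Of 33 members, 12 overlap a gene on the other strand, and for Pcca that gene, Ggact, reached 14.8% of its level.

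Genes with a mean of at least 0.5 FPKM entered limma (version 3.58.1, R 4.3.3; two-sided, with a mean-variance trend) as log2(FPKM + 0.5), with Benjamini-Hochberg adjustment over all of them; changes of low genes are understated on this scale. Whether the mice are littermates is not stated, so a difference between litters cannot be told apart from a knockout effect. The limma p-values set group differences against the variation between these mice, moderated over all genes. Reads rebuilt from FPKM, gene length and library total were whole for 100% of values (tolerance 0.001) and were tested with edgeR 4.0.16 and DESeq2 1.42.0 as alternatives. The limma fit of knockout against control in each depot was tried on simulated counts. The other fits were not tried in this way. The depots of a mouse share an animal number, which pairs them; the correlation of their deviations was -0.10 to 0.14. Exact permutation tests used SciPy 1.17.1. Members, lists and tests were chosen with earlier results of these data known. Pad values are given for members with an unadjusted p under 0.05 in a knockout comparison, in the depot of that comparison. For members at that level in the difference between depots they are given in both depots. For the 6 with the largest depot difference in control mice, the control pads of both depots are given. Up to 4 genes per other list were named by smallest p. Ratios and Arg1 pad values were chosen after the data were seen.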

Additional observations from a re-analysis of the deposited data

How the results depend on the processing

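The number of genes and members called depended on what counted as a replicate and on the tool. With each library a replicate, 1125 gonadal and 2189 inguinal genes were called for the knockout, 265 for the difference between depots and 9100 for the depots of control mice, and 13, 6 and 4 members for the first 3. DESeq2 on rebuilt counts called 288 gonadal genes (6 members), 585 inguinal genes and 11 for the difference, and edgeR called 0, 2 and 0. The unadjusted p was under 0.05 for 1291 gonadal, 2024 inguinal and 725 difference genes. Leaving out 1 mouse in turn gave 0 to 1 gonadal and 0 to 78 inguinal genes (78 without M7), 1534 to 5257 genes and 16 to 28 members for the depots of control mice (lowest without M10), and 3047 to 5911 genes for those of knockout mice (lowest without M5; 4138 without M9). With fewer than 3 mice in a group, the lone or paired samples are assumed to vary like the rest.

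The inguinal median of the members reversed to -0.042 without control mouse M6 and was -0.042 to 0.15 over the mice left out. The median of the difference between depots was 0.12 to 0.37 over them, and that of the depots of knockout mice -0.96 to -0.68. The adipocyte covariate gave medians of 0.10 (gonadal) and 0.23 (inguinal) and 7 inguinal genes; the muscle covariate gave 0 inguinal genes, and the B cell covariate 582 genes (110 higher, 472 lower) and 2 members, Glud1 and Got2; the adipocyte and muscle covariates called 0 members. For the depots, the members' median was -1.35 with edgeR, -1.37 with DESeq2 and -1.44 after centring in control mice, and -1.12, -1.17 and -1.29 in knockout mice; less the adipocyte median it reversed to 0.34 and 0.19. In control mice, centring turned the split of all genes called between depots from 3904 higher and 2106 lower to 2437 and 3768. In knockout mice the split went from 5122 and 1849 to 2206 and 4021. Members called went from 3 higher and 27 lower to 1 and 27 in control mice. In knockout mice they went from 3 and 24 to 2 and 27. Aldh3a2 was at 0.04 after centring in control mice and not called. Without gonadal pads holding epididymis transcripts, 2358 genes and 18 members were called in control mice. The cause was not tested. The B cell covariate, the depot results without these pads and the adipocyte subtraction were chosen after seeing the data.

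The replicate block by mouse called 26 members in control mice (3 higher, 23 lower), among 5092 genes (3228 higher, 1864 lower). In knockout mice it called 25 members (3 higher, 22 lower), among 6365 genes (4691 higher, 1674 lower). For the difference it called 0 members and 0 genes. In control mice 5 members lost and Abat gained a call, and in knockout mice Acad8 and Aldh2 lost theirs. Members with an unadjusted p under 0.05 changed sign in 0 settings; over all members, signs changed in 12 of 511 gonadal, 28 of 544 inguinal and 38 of 512 difference values, and in 0 of 416 and 3 of 416 depot values. Bcat1, at under 0.5 FPKM, limits what can be said of it.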
